A study of Arabidopsis thaliana with 6 samples.

Results

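The array of cls8 seedlings held for 3 h at 4 °C was set against the wild-type and sfr6 arrays of the same treatment, and a transcript was counted where cls8 lay outside both other lines on the same side. The comparison uses 3 of the 6 arrays of the series, and the 3 arrays at 20 °C serve to show which differences were also present without cold. Of 13648 probe sets above a filter on low signal, 4056 (29.7%) were higher and 5445 (39.9%) lower in cls8 than in both lines by any amount, since 1 of 3 arrays often lies at an end by itself. A gap of at least 2-fold to the nearer line was therefore required on the log2(intensity + 14.2) scale, on which folds of dim transcripts are understated, and 25 probe sets met it, 13 higher and 12 lower.

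Col-0 wild type of Arabidopsis thaliana was grown beside sfr6 and cls8, both EMS mutants in the same ecotype. Seeds were stratified for 4 days at 4 °C, and whole seedlings grown on MS medium at 20 °C were moved at 7 days of age to a chamber at 20 °C or at 4 °C in the light. Each ATH1 array carried cRNA from 40 to 60 pooled plants, and each line had 1 array at each temperature, so no group has a replicate. Both cls8 arrays are marked in their titles as repeats and no other array is, so genotype and repeat cannot be told apart. Each mutant is represented by a single line, and neither mutated gene had a named probe set, so the cls8 label could not be checked against its target.

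Arabidopsis seedlings respond to low temperature above freezing by switching on cold-regulated (COR) genes, which raise their tolerance of later frost. CLS8 encodes the large subunit of ribonucleotide reductase, which makes the precursors of DNA, and mutants of this gene have crinkled, pale leaves with altered chloroplasts. SFR6 encodes a subunit of the Mediator complex through which the CBF transcription factors act on COR genes, so that sfr6 is a line with a weak cold response rather than a second control. Whole seedlings were measured, and in such bulk samples fewer cells of a type and less RNA per cell cannot be told apart.

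The trimmed mean intensity was 100.0 on every array, and the median intensity lay between 41.7 in cls8 at 4 °C and 45.2 in wild type at 20 °C. The cls8 array at 4 °C had 414 outlier cells, against 434 in wild type and 517 in sfr6 in the cold. At 20 °C the counts were 922 in cls8, 406 in wild type and 1101 in sfr6. Its ratio of the 3′ to the 5′ actin control was 5.53, above the 3.73 of the wild type and the 4.2 of sfr6, while the GAPDH ratio was 1.23 in cls8 and sfr6 and 1.31 in wild type. The control for 5S ribosomal RNA had an intensity of 9.2 on the cls8 array at 4 °C, 68.1 in wild type and 44.8 in sfr6, and 11.0 in cls8 at 20 °C. The part of these control values in the results below was not tested.

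In the cold, cls8 stood apart through a small set of transcripts of little known function and higher signals of 3 plant defensins. Levels of the defensin-like LCR68 and of some chloroplast-encoded transcripts were lower. Of the 3 defensins, PDF1.2 and PDF1.2b may not be separate signals. Only PDF1.2b among them stayed called under all 4 transformations of the intensities that were tried. The 25 called probe sets made up 0.183% of those tested, and the 13 higher and 12 lower made up 0.0953% and 0.0879%. By the same rule the wild-type array at 4 °C lay outside both mutants at 0 probe sets as higher and 4 (0.0293%) as lower, and the sfr6 array at 27 (0.198%) and 98 (0.718%). Exactly 1 gene was paired with 14 of the 25, 10 of them higher and 4 lower, and these are described first.

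**Figure D1:**
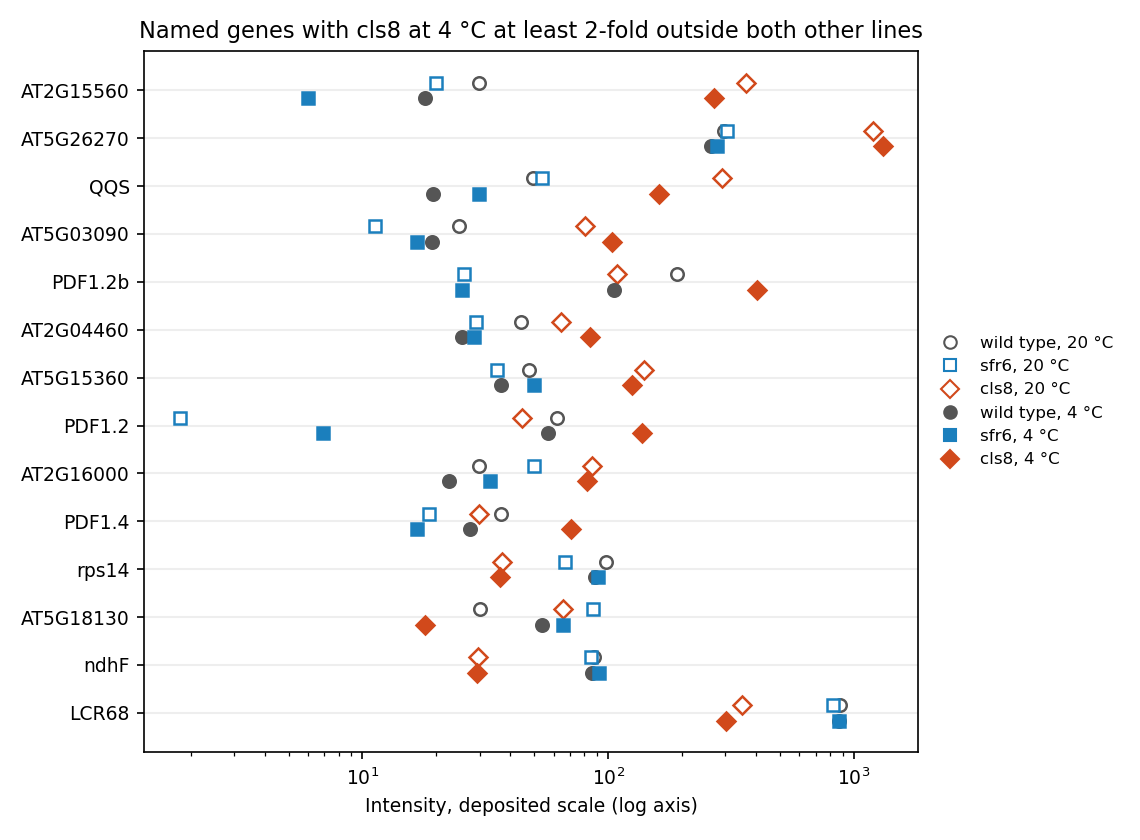
Intensity of the 14 named genes with cls8 at 4 °C at least 2-fold outside both other lines, on a log axis, for each of the 6 arrays. Open symbols stand for 20 °C and filled symbols for 4 °C, and each symbol is 1 array. For AT2G15560, AT5G26270, QQS and AT5G03090 both cls8 arrays lie to the right of the other 4, whereas for the defensins PDF1.2b, PDF1.2 and PDF1.4 the cls8 array at 20 °C lies among the others.

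AT2G15560, a protein-coding gene with no name in the annotation, had the largest gap of a named gene. Its intensity at 4 °C was 17.9 in wild type, 6.0 in sfr6 and 270.5 in cls8, and at 20 °C it was 29.9, 20.0 and 362.7. Both cls8 values were therefore far above the other 4, and the gap to the nearer line at 4 °C was 8.87-fold (3.15 on the log2 scale). The other values were near the pseudocount, and the plain ratio of intensities was 15.1. AT5G26270 read 263.0 in wild type, 276.8 in sfr6 and 1315.6 in cls8 at 4 °C, and 295.3, 303.8 and 1196.1 at 20 °C. The other lines thus lay close together at both temperatures while cls8 lay 4.57-fold above the nearer of them.

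QQS, an orphan gene that affects starch content, read 19.3 in wild type, 29.9 in sfr6 and 161.4 in cls8 at 4 °C, and 49.5, 53.9 and 291.0 at 20 °C. It was lower at 4 °C than at 20 °C on the arrays of all 3 lines, with cls8 above the others at each temperature. AT5G03090 read 19.1, 16.7 and 103.8 in the same order at 4 °C, and 24.7, 11.2 and 80.8 at 20 °C. AT5G15360 read 36.6, 50.1 and 125.6 at 4 °C, and 47.6, 35.4 and 139.5 at 20 °C. For both genes, too, the cls8 values of the 2 temperatures lay together and apart from the rest.

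The remaining higher genes outside the defensins were 2 loci that the annotation lists as pseudogenes. AT2G16000 read 22.4 in wild type, 33.1 in sfr6 and 82.3 in cls8 at 4 °C, and AT2G04460 read 25.5, 28.4 and 84.0. At 20 °C their cls8 values were 86.0 and 64.4, again above both other lines.

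Plant defensins are small cysteine-rich proteins with antifungal activity, and PDF1.2 is a standard marker of the defence pathway driven by jasmonate and ethylene. PDF1.2b read 105.4 in wild type, 25.3 in sfr6 and 402.1 in cls8 at 4 °C, and 190.7, 25.9 and 108.2 at 20 °C. In cls8 it was higher in the cold than at 20 °C, whereas in wild type it was lower. PDF1.2 read 56.7, 6.9 and 137.1 at 4 °C, and 62.0, 1.8 and 44.6 at 20 °C. PDF1.4, which the annotation also lists as a low-molecular-weight cysteine-rich gene, read 27.3, 16.7 and 70.3 at 4 °C, and 36.8, 18.6 and 29.9 at 20 °C. For all 3 genes cls8 at 20 °C lay between the wild type and sfr6, and cls8 at 4 °C was the highest of the 6 arrays. PDF1.2 and PDF1.2b are near-identical and the probe set of PDF1.2b carries the suffix for cross-hybridisation, so their signals may not be separate.

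LCR68, also named PDF2.3, was the named gene furthest below both lines. It read 870.4 in wild type, 866.9 in sfr6 and 300.8 in cls8 at 4 °C, and 882.1, 821.6 and 351.7 at 20 °C. Both cls8 arrays were well below a tight group of the other 4, so that this defensin-type gene lay on the other side from the other 3. Of 19 listed genes of jasmonate, ethylene and salicylate defence, PDF1.2, PDF1.2b and LCR68 were the 3 measured. Their median log2 difference of 1.97 is the value of PDF1.2, and LCR68 was at -1.49. All 3 were called by the rule, so the median describes these genes and not the list. The chloroplast gene ndhF, which encodes a subunit of the NDH complex of cyclic electron flow, read 86.0, 91.8 and 29.2 at 4 °C, and 87.5, 85.4 and 29.4 at 20 °C. The chloroplast gene rps14, of the small ribosomal subunit, read 88.2, 91.1 and 36.4 at 4 °C, and 97.6, 66.6 and 37.0 at 20 °C. AT5G18130 was the exception among the 4, with 53.6, 65.4 and 17.9 at 4 °C but 30.1, 86.8 and 65.4 at 20 °C, where cls8 lay between the other lines.

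A further 11 called probe sets, 3 higher and 8 lower, are unnamed here. The widest gap of all was that of probe set 266680_s_at, which read 0.7 in wild type, 3.3 in sfr6 and 262.1 in cls8 at 4 °C, and 1.8, 6.5 and 324.4 at 20 °C. It was close to 0 on the 4 other arrays and bright on both cls8 arrays, so that it passed the filter on low signal only through the latter. Probe set 246075_at was the next higher of the unnamed that the naming rule takes, at 28.1, 22.7 and 78.8 at 4 °C. The lowest unnamed were 244924_at, at 47.1, 48.4 and 8.8, and 267545_at, at 243.3, 196.3 and 70.0. For the higher, the low side is the mean of the other lines over both temperatures, and for the lower that of cls8. In all, 9 of the 25 had a low side below the level of the filter, an intensity of 29.1. These 9 had to differ to be kept. They were 3 of the lower, all unnamed, and 6 of the higher, with AT2G15560, AT5G03090, PDF1.2 and PDF1.4 among them. At 4 °C alone, QQS, AT2G04460 and AT2G16000 also read below 29.1 in wild type, as did AT5G18130 in cls8.

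Just inside the 2-fold limit lay PDF1.4 and AT2G16000, with gaps of 1.03 each on the log2 scale, and rps14 at -1.02. Just outside it lay AT5G20790 at 0.86, AT1G51090 at 0.85 and AT5G64120 at 0.82 among the higher, and AT5G26280 at -0.99, psbT at -0.93 and AT1G18270 at -0.92 among the lower. AT5G26280 is the next gene to AT5G26270 in the annotation and read 528.0 in wild type, 474.3 in sfr6 and 231.1 in cls8 at 4 °C, the opposite side to its neighbour. Of the 12 called nuclear genes with a name, 5 were on chromosome 2, 5 on chromosome 5 and 1 each on chromosomes 1 and 3, where 15%, 24.1%, 25.6% and 20.4% of the named nuclear probe sets tested lie.

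The arrays at 20 °C, which the rule did not use, showed which of these differences were also present without cold. Of the 25 called probe sets, 22 lay on the same side of the mean of the other lines at 20 °C, 17 lay outside both lines on that side, and 8 were again at least 2-fold outside. Those 8 are 32% of the 4 °C list and 42.1% of the 19 probe sets (0.139%) called at 20 °C by the same rule, 9 higher (0.0659%) and 10 lower (0.0733%). Of the 8, 3 were among those whose low side was below the filter. In a limma fit without the cls8 array at 4 °C, which tests cls8 at 20 °C, 9 of the 25 passed a Benjamini-Hochberg adjusted p of 0.05, all in the direction seen at 4 °C, against 83 of all 13648 (0.608%), 54 higher (0.396%) and 29 lower (0.212%). The 7 named among them were AT2G15560, AT5G26270, QQS, AT5G03090 and AT5G15360 as higher and LCR68 and ndhF as lower. Of the 9, 3 likewise had their low side below the filter, so both counts are descriptions. The spread in that fit comes from the wild-type and sfr6 arrays alone, and both mutants and the wild type are assumed to vary alike.

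The adjusted p at 20 °C was 2.51e-06 for AT2G15560, at a log2 difference of 3.28 from the mean of the other lines. It was 3.41e-05 for AT5G26270 (log2 difference 1.95), 4.57e-05 for QQS (2.21) and 0.00233 for LCR68 (-1.24). By contrast PDF1.2b had a log2 difference of 0.43 at 20 °C (limma adjusted p = 0.55), PDF1.2 of 0.75 (adjusted p = 0.234) and PDF1.4 of 0.11 (adjusted p = 0.939). AT5G18130 had a log2 difference of 0.25 at 20 °C, on the other side from its value at 4 °C. AT2G15560 had its low side below the filter and was kept through its cls8 arrays, so its adjusted p at 20 °C is a description.

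**Figure D2:**
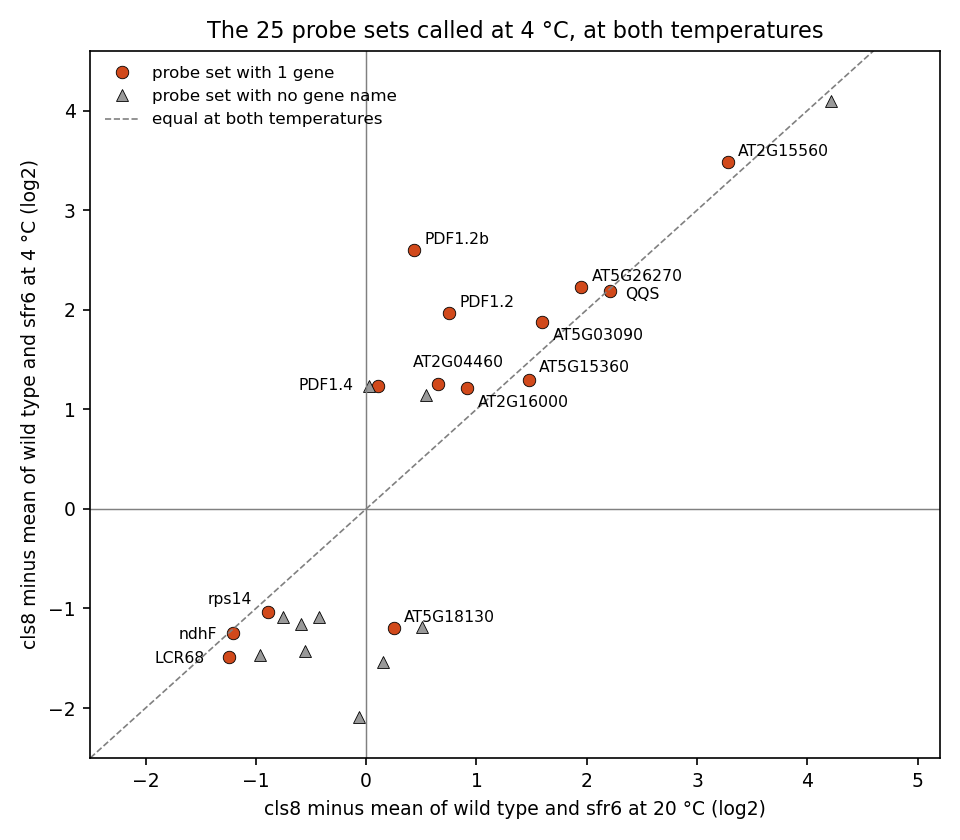
Difference of cls8 from the mean of wild type and sfr6, in log2 units, at 20 °C (horizontal) and at 4 °C (vertical) for the 25 called probe sets, each point 1 probe set. Points on the dashed line differ equally at both temperatures, as AT2G15560 (3.28 and 3.48) and QQS (2.21 and 2.19) nearly do, while PDF1.2b (0.43 and 2.60) lies above it and AT5G18130 (0.25 and -1.19) below.

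Over both temperatures together, limma with additive terms for line and temperature called 110 of 13648 probe sets (0.806%) for cls8 against the mean of the other lines, 83 higher (0.608%) and 27 lower (0.198%). Of the 25 probe sets called at 4 °C, 12 passed, 7 higher and 5 lower, and this fit shares the 4 °C arrays with the rule. AT5G26270 had a log2 difference of 2.09 ± 0.11 (SE, limma adjusted p = 6.45e-05) over both temperatures, and LCR68 one of -1.36 ± 0.11 (adjusted p = 0.00175). For PDF1.2 the adjusted p was 0.0508 and for PDF1.2b it was 0.164. Leaving out the sfr6 array at 4 °C gave 49 calls, and leaving out the wild-type array at 20 °C or at 4 °C gave 207 and 208. Over 12 settings of this fit AT2G15560, AT5G26270 and QQS passed in all, with adjusted p up to 0.00644, 0.0124 and 0.0124, and 11 of these settings hold the cls8 array at 4 °C that the rule used.

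Whether a difference was larger at 4 °C than at 20 °C was tested through a cold term of its own for cls8 in limma, with 1 residual degree of freedom. PDF1.2b and the unnamed probe set 261226_at passed out of 13648 (0.0147%), both with more signal in cls8 in the cold, and 948 had an unadjusted p under 0.05. The difference of cls8 from the other lines was larger at 4 °C by 2.17 ± 0.29 (SE, log2) for PDF1.2b (limma adjusted p = 0.0332). PDF1.2 had a value of 1.22 (adjusted p = 0.436), PDF1.4 of 1.13 (adjusted p = 0.438) and AT5G18130 of -1.45 (adjusted p = 0.424), and none of these passed. The cold term uses the cls8 array at 4 °C by which the rule chose PDF1.2b, so its passing adds no independent support. PDF1.2b did not pass after quantile normalization, with no filter or without the trend. On data simulated for the test of the cold term over 13648 probe sets, it recovered 10% of differences of 1 and 58% of those of 1.5 (log2). It also called 9 of 13448 unchanged probe sets there, and the simulated lines had no other differences.

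A limma contrast of cls8 at 4 °C with the mean of the other lines at 4 °C called 155 probe sets (1.14%), 108 higher (0.791%) and 47 lower (0.344%), and 75 of them had 1 gene. After quantile normalization of the log2 values it called 14, 13 higher and 1 lower. The contrast uses the same arrays as the rule, so its passing all 25 called probe sets adds no independent support. Of the 108 higher calls, 49 had a gap to the nearer line under 1.5-fold, or none. The wild type was the nearer line for 90 of the 108. AT5G62360, related to inhibitors of pectin methylesterase and invertase and chosen here after its values were seen, shows this. It read 647.0 in wild type, 80.5 in sfr6 and 1014.8 in cls8 at 4 °C, so that the low sfr6 value made most of a log2 difference of 2.04.

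Tested against each line on its own, with the larger of both p-values adjusted, 9 probe sets passed in limma (0.0659%), and all 9 were among the 25. The named ones were AT2G15560 (adjusted p = 3.41e-06), AT5G26270 (2.14e-05), QQS (2.45e-04), LCR68 (0.00196), AT5G03090 and PDF1.2b (0.011 each) and ndhF (0.029). This test was added after the data were seen and uses the arrays on which the 25 were chosen, so neither the overlap nor these p-values add independent support.

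The CBF regulon, the cold-regulated COR and LTI genes under the CBF factors, was highest in cls8 at 4 °C. All 6 measured members of the 16 listed were above both lines, as were 29.7% of all probe sets, with a median log2 difference of 0.90 from the mean of the others, against -0.03 over all probe sets tested. COR15A and COR15B are chloroplast proteins that stabilise membranes when cells freeze. COR15A read 423.7 in wild type, 101.3 in sfr6 and 573.0 in cls8 at 4 °C, and 48.4, 33.2 and 97.2 at 20 °C. COR15B read 619.1, 313.7 and 793.6 at 4 °C, and 110.0, 71.1 and 171.5 at 20 °C. The cls8 array was thus nearer to the wild type than to sfr6 for both genes.

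The dehydrin LTI30 read 847.0 in wild type, 176.7 in sfr6 and 1074.5 in cls8 at 4 °C, and the dehydrin COR47 read 1451.2, 775.1 and 2108.1. TIL, a lipocalin, read 727.9, 586.7 and 1107.8, and DI21 read 171.6, 136.1 and 204.1. The 5 members other than DI21 passed limma against the mean of the other lines, with adjusted p from 0.00147 for LTI30 to 0.048 for TIL, beside the 0.791% of all probe sets called higher. None of the 6 was 2-fold above the nearer line or passed against each line on its own, and none passed against the mean after quantile normalization (LTI30 adjusted p = 0.0666). Against the wild type alone the median was 0.39, and against sfr6 alone it was 1.36. At 20 °C all 6 were likewise highest in cls8, as were 34.5% of all probe sets, with a median of 0.69, and there COR15B passed in the fit without the cls8 array at 4 °C (limma adjusted p = 0.041).

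Of 15 early cold-induced regulators, the 3 measured were also highest in cls8 at 4 °C, as were 29.7% of all probe sets. None passed limma. Their median log2 difference was 0.61 from the mean of the other lines and 0.31 from the wild type alone. STZ, a zinc-finger repressor of stress responses, read 265.0 in wild type, 124.3 in sfr6 and 332.1 in cls8. COR27 read 242.5, 170.0 and 316.6, and AT4G33980, named COR28, read 397.0, 262.5 and 458.7. At 20 °C the cls8 values of 29.4, 10.9 and 15.3 were near those of the wild type, at 26.2, 13.0 and 15.3. The clock gene GI, the only measured member of 18 clock genes, read 298.1, 244.9 and 401.6 at 4 °C and did not pass (limma adjusted p = 0.155).

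**Figure D3:**
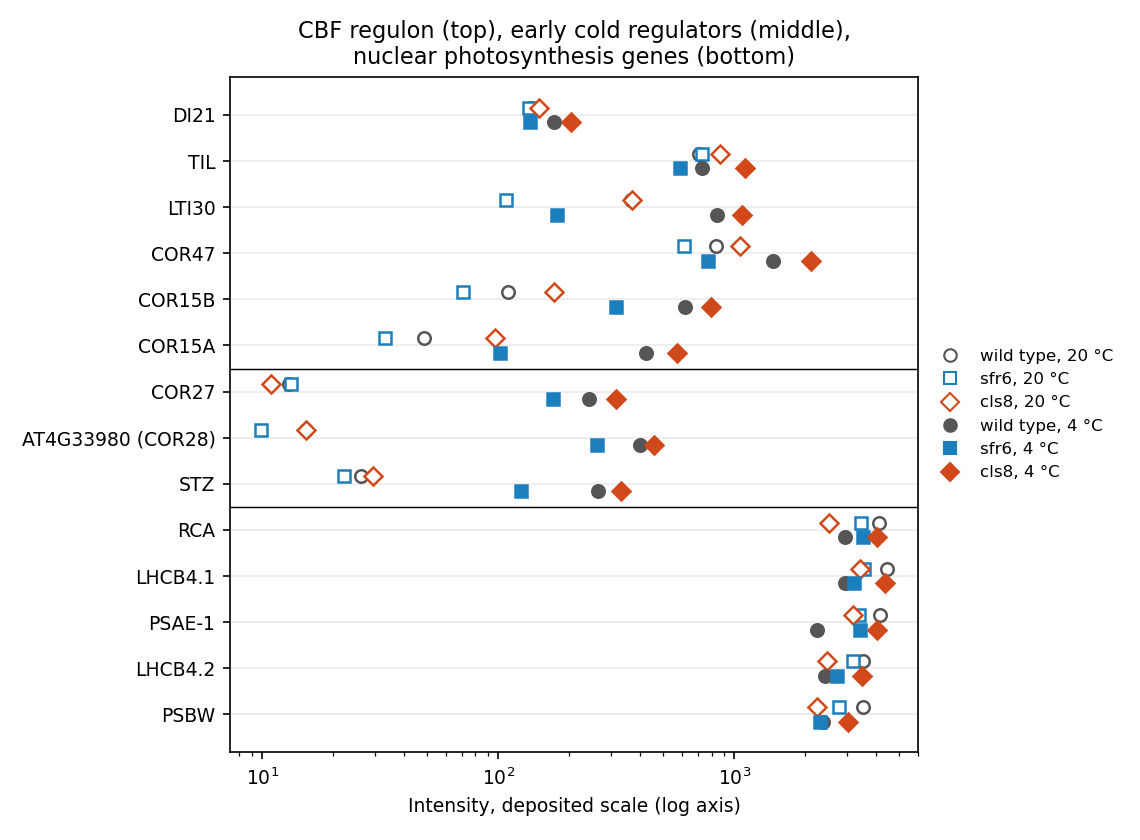
Intensity on a log axis of the measured CBF regulon members (top), early cold-induced regulators (middle) and nuclear photosynthesis genes (bottom) on each of the 6 arrays, open symbols for 20 °C and filled for 4 °C. The filled cls8 symbol is the rightmost filled symbol in every line of the plot, and for the photosynthesis genes the open cls8 symbol is the leftmost open symbol.

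Nuclear genes of photosynthesis lay on opposite sides at the 2 temperatures, but none passed a test. All 5 measured of 26 (RCA, which encodes Rubisco activase, the antenna genes LHCB4.1 and LHCB4.2, and the photosystem genes PSAE-1 and PSBW) were above both lines at 4 °C, with a median of 0.44, and below both at 20 °C, with a median of -0.44, beside 29.7% of all probe sets above at 4 °C and 32% below at 20 °C. RCA read 2952.3 in wild type, 3517.0 in sfr6 and 4002.7 in cls8 at 4 °C, and 4093.2, 3441.4 and 2524.4 at 20 °C. None of the 5 passed limma at 4 °C, at 20 °C in the fit without the cls8 array at 4 °C (adjusted p from 0.296 to 0.839), or for the difference between the temperatures (adjusted p from 0.522 to 0.676). The 182 brightest probe sets outside the plastid genome, a set formed after seeing the data, lay mostly on the same sides, with 137 above both lines at 4 °C (median 0.23) and 170 below both at 20 °C (median -0.31). After quantile normalization the median at 4 °C was 0.17 for the 5 genes and 0.01 for the 182 probe sets, and RCA turned from 0.31 to -0.03.

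The chloroplast genome encodes subunits of both photosystems, the cytochrome b6f, ATP synthase and NDH complexes, and part of the plastid's own RNA polymerase and ribosome. Of 69 plastid-encoded transcripts measured, 39 were below and 10 above both lines in cls8 at 4 °C, beside 39.9% and 29.7% of all probe sets, with a median log2 difference of -0.12. In limma 7 passed as lower, beside 0.344% of all probe sets, and 0 as higher, and only ndhF and rps14 met the 2-fold rule. After quantile normalization none of the 7 passed in limma (ndhF adjusted p = 0.0616). Labelling was primed with oligo(dT), and plastid transcripts mostly lack long poly(A) tails, so that their signal need not follow their abundance.

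Besides ndhF and rps14, the lower calls were psbT of photosystem II, petG of cytochrome b6f, rps18 of the small ribosomal subunit, and ndhG and ndhE of the NDH complex. The signal of psbT was 504.9 in wild type, 477.2 in sfr6 and 244.1 in cls8 at 4 °C, and 578.9, 419.1 and 221.9 at 20 °C. The signal of petG was 351.9, 324.8 and 179.2 at 4 °C, and 363.4, 353.0 and 150.7 at 20 °C. Both cls8 arrays were lower than the other 4 in each case. By complex, 3 of 10 NDH transcripts, 2 of 8 of the small ribosomal subunit, 1 of 15 of photosystem II and 1 of 6 of cytochrome b6f passed as lower. None of 5 of photosystem I, 6 of ATP synthase, 4 of the RNA polymerase and 7 of the large ribosomal subunit passed at 4 °C.

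Of the 7 lower calls at 4 °C, ndhF, psbT, petG and ndhE also passed in the fit without the cls8 array at 4 °C. That fit called 13 of the 69 as lower at 20 °C, beside 0.212% of all probe sets, and the median of the 69 at 20 °C was -0.46. At 20 °C 63 of the 69 were below and 0 above both lines, beside 32% and 34.5% of all probe sets. Of the 182 brightest probe sets outside the plastid genome, 170 were below both lines at 20 °C and 1 was above (median -0.31). Of the 23 dimmest plastid transcripts, 21 were below both lines at 20 °C (median -0.75). The part of array signal in these values was not tested. On the cls8 array at 20 °C the 25S ribosomal RNA control read 481.5, against 2716.3 in wild type and 2558.9 in sfr6, and its actin ratio of 2.79 was the lowest of the 6 arrays. The part of these control values in the differences at 20 °C was not tested. The transcript of rbcL, the large subunit of Rubisco, read 880.6 in wild type, 857.3 in sfr6 and 389.4 in cls8 at 20 °C (limma adjusted p = 0.0048). At 4 °C it read 1070.3, 1047.3 and 708.8, and did not pass (limma adjusted p = 0.121). That of psbA, the D1 protein of photosystem II, read 4250.3, 3379.4 and 1878.7 at 20 °C and 2819.3, 3425.3 and 3798.7 at 4 °C, from the lowest of the lines to the highest. For 51 of the 69 the difference of cls8 from the other lines was more positive at 4 °C than at 20 °C. Over all 69 the median of this change was 0.35. Over all probe sets tested the median difference from the other lines was 0.01 at 20 °C and -0.03 at 4 °C. Of the 69, 0 passed the test of the change, in which 948 of all probe sets had an unadjusted p under 0.05.

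The lower values at 4 °C lay mostly, but not only, among the dimmer transcripts. The brighter ndhE was at -0.79 and psaA at -0.47. Among the 23 dimmest plastid transcripts by array signal, a division made after seeing the data, the median at 4 °C was -0.56 and 6 passed as lower. Among the 23 in the middle it was -0.12 and 1 passed, and among the 23 brightest it was 0.08 and 0 passed. The 5 most positive values were those of atpB at 0.32, psbA at 0.29, atpE at 0.26, psbC at 0.24 and psaB at 0.23, and none passed. After quantile normalization all of these but psbC (0.06) turned to between -0.09 and -0.03, and the medians of the dimmest, middle and brightest were -0.53, -0.21 and -0.10. Their side is also that of the brightest probe sets outside the plastid genome, and the part of array signal in the pattern was not tested. Brightness of different probe sets is not a comparison of transcript abundance.

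**Figure D4:**
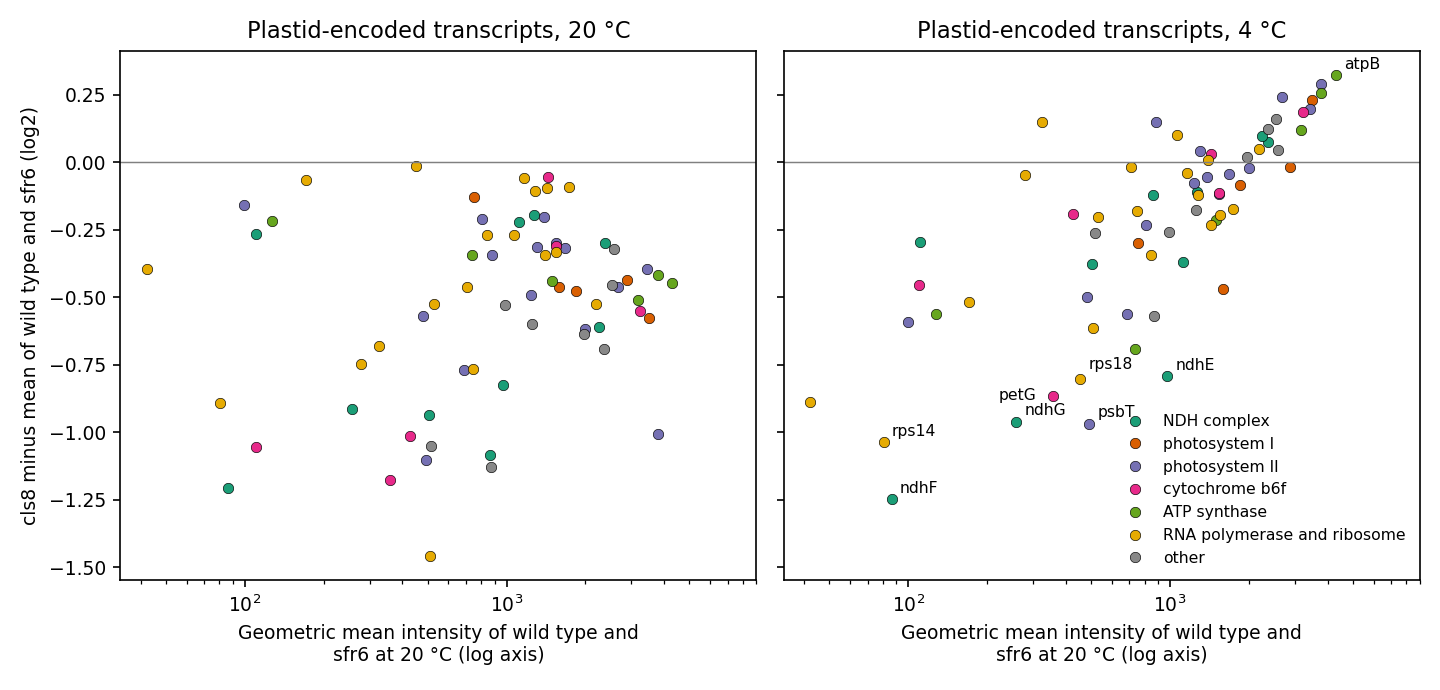
Difference of cls8 from the mean of wild type and sfr6 (log2) for the 69 plastid-encoded transcripts against their geometric mean intensity in wild type and sfr6 at 20 °C (log axis), at 20 °C (left) and 4 °C (right), each point 1 transcript coloured by complex. At 20 °C every point lies below 0. At 4 °C the lowest points are mostly dim ones, down to -1.25 for ndhF. Most of the brightest lie above 0 there, up to 0.32 for atpB. After quantile normalization, which is not plotted, the median of the brightest 23 at 4 °C is -0.10 and atpB is at -0.05.

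Of 7 mitochondrial transcripts measured (median -0.20 at 4 °C), 4 were below both lines at 4 °C, beside 39.9% of all probe sets. None of these 7 passed limma at 4 °C. At 20 °C all 7 were below both lines (median -0.31), beside 32% of all probe sets. Unnamed probe sets are not counted among the 7. The unnamed 244921_s_at and 244924_at, both called lower at 4 °C, fall in probe number between those of the mitochondrial ccb382 and orfX. Their log2 differences at 4 °C were -1.08 and -1.43. Whether they measure mitochondrial transcripts was not tested. Of 21 genes of DNA precursor synthesis and replication, the process nearest to the cls8 defect, 2 were measured. ICU2, a catalytic subunit of DNA polymerase alpha, read 30.3 in wild type, 34.8 in sfr6 and 23.4 in cls8 at 4 °C, and PRL, an MCM helicase subunit, read 129.0, 124.9 and 118.1. Neither passed limma (adjusted p = 0.603 and 0.888). None of 17 genes of the DNA damage response had a named probe set, so that response was not analysed here. The plastid division genes FTSZ2-1 and FTSZ2-2 both lay between the other lines at 4 °C, at 143.7 and 108.8.

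The 4 measured genes of chlorophyll synthesis (PORB, CHLM, HEME1 and HEME2) had a median of 0.19, and against the wild type alone it was -0.03. The 3 of anthocyanin and flavonoid synthesis (DFR, UF3GT and UGT78D2) had a median of 0.15, and the 2 of oxidative stress (GSTU25 and AT2G21640) one of 0.06. Apart from QQS, the starch and sugar list held ATSPS4F, a sucrose phosphate synthase, at 253.0 in wild type, 275.5 in sfr6 and 343.2 in cls8. None of these genes other than QQS passed limma at 4 °C. No gene of the lists for heat shock proteins and for plastid polymerases and sigma factors was measured.

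Markers of tissues that seedlings could hold in different shares were few. The root markers PYK10 and EXPA7 had log2 differences of 0.19 and -0.16 in cls8 at 4 °C, the guard cell marker FMA one of 0.16 and the dividing-cell marker AUR1 one of -0.18. These were 2 of 8, 1 of 7 and 1 of 6 listed markers, none passed limma, and 0 of 5 seed markers was measured. PYK10 read 2852.0 in wild type, 3155.1 in sfr6 and 3418.4 in cls8 at 4 °C, and AUR1 read 116.8, 88.1 and 87.7.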

How the data were processed

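The authors' deposited values are intensity per probe set on a linear scale for 6 ATH1 arrays of biotin-labelled cRNA, per the labels' protocols. On each array the mean without the lowest and highest 2% of values is 100, as found from the values; no algorithm or software is named in the labels used. After 64 controls were set aside, 22746 of 22810 probe sets remained. Values were transformed as log2(intensity + 14.2), the 25th percentile of all values, which understates differences of dim genes, and 13648 probe sets with a mean log2 at or above the 40th percentile were kept. A platform table gave exactly 1 gene for 13513 probe sets, several for 503 and none for 8730, and 13436 of the 13513 matched RefSeq names (TAIR10.1). Of the kept probe sets, 7343 had 1 gene. "Measured" genes are those with a kept, named probe set.

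The 2-fold rule has no test. The tests used limma 3.58.1 in R 4.3.3 (lmFit, eBayes with trend), two-sided, with Benjamini-Hochberg adjustment over 13648 probe sets and a threshold of 0.05; tables and figures used Python 3.11.15. The contrast at 4 °C came from a fit to 6 arrays with line, temperature and a cold term for cls8 (1 residual degree of freedom, prior 12.2), whose spread is how far the wild type and sfr6 differ in their response to cold, and the additive fit had 2 of them (prior 6.82). Nothing says that arrays stand for separate cultures, so p-values measure only the spread between these arrays, and their number limits the precision. In data simulated once on 13648 probe sets, changes of 0.5, 1, 1.5 and 2 on the log2 scale were made (50 each). The contrast at 4 °C recovered 2%, 68%, 96% and 100% of them, and the additive fit 18%, 94%, 100% and 100%. Of 13448 unchanged probe sets, the contrast at 4 °C called 13 and the additive fit 9. The simulated lines had no other differences.

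The named genes are the called probe sets with 1 gene, the listed genes that were called or passed limma, the 5 largest plastid differences each way (rpoB, at -0.89, did not pass) and the 2 highest and 2 lowest unnamed probe sets. Values of other listed genes complete their lists. The members and gene lists were chosen with earlier results of these data known. Alternatives were other pseudocounts, normalization, filters, gaps and single reference lines, eBayes without trend and each array left out; a filter on the 4 °C arrays and the test against each line on its own were added after seeing the data.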

Additional observations from a re-analysis of the deposited data

Results flagged for a closer look

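In 2 probe sets the difference of cls8 from the other lines was larger at 4 °C than at 20 °C by limma's cold term of cls8. PDF1.2b had a log2 value of 2.17 for the difference at 4 °C minus that at 20 °C. It was chosen by the rule on the same cls8 array at 4 °C, so this adds no independent support. Its intensity went from 108.2 at 20 °C to 402.1 at 4 °C in cls8, from 190.7 to 105.4 in wild type and from 25.9 to 25.3 in sfr6. Probe set 261226_at, which has no gene name, had a log2 value of 2.11. It went from 121.3 to 170.6 in cls8, from 223.0 to 79.5 in wild type and from 272.1 to 58.3 in sfr6, so that cls8 was the lowest line at 20 °C and the highest at 4 °C. The adjusted p was 0.0332 for both, and over the alternatives tried it ranged from 4.44e-04 to 0.87. Both passed with a pseudocount of 43.6 (the median value) and with none, and neither passed after quantile normalization (adjusted p = 0.694), with no filter (0.87) or without the trend (0.0994).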

How the results depend on the processing

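No paired analysis was possible because each group has 1 array, and leaving out a wild-type or sfr6 array left no residual degree of freedom for the contrast at 4 °C, as did leaving out any of these for the cold term of cls8, which needs both cls8 arrays. Without the cls8 array at 20 °C, 158 probe sets passed at 4 °C. The 25 probe sets outside both lines became 61 (22 higher, 39 lower) with no pseudocount, where values listed at 0 were set to 0.1, 10 (7 and 3) with a pseudocount of 43.6, the median value, 38 with no filter, 10 with a filter at the 60th percentile, 184 at a gap of 1.5-fold, 6 at 3-fold and 238 against sfr6 alone. Quantile normalization gave 24, the filter on the 4 °C arrays 27 and the wild type alone 37. Under all 4 transformations 10 stayed called, with AT2G15560, AT5G26270, QQS, AT5G03090, PDF1.2b and LCR68 named among them. The contrast at 4 °C, with 155 calls, gave 260 with the median pseudocount, 14 after quantile normalization, 9 against each line on its own and 0 with no filter, where 1893 had an unadjusted p under 0.05. The 110 calls over both temperatures became 6 with no filter and 58 without the trend, and with 1 array left out 49 to 208. The 2 calls of the cold term became 5 with no pseudocount, 4 with the median pseudocount, and 0 after quantile normalization, with no filter and without the trend, where 659, 1234 and 930 had an unadjusted p under 0.05. Of the list medians, the CBF regulon was 0.39 against the wild type alone and 1.36 against sfr6 alone, and the early cold regulators 0.31 and 0.84. The defence list, of 3 genes all called by the rule, was at 1.97, and at 1.09 and 2.84 against these lines. It was at 2.79 with no pseudocount and 1.34 with the median pseudocount. Nuclear photosynthesis fell to 0.17 after quantile normalization, and chlorophyll synthesis turned to -0.0298 against the wild type alone. The cause of these shifts was not tested.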
